A study of Mus musculus with 2 samples.

Results

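The genes described here are p53 (Trp53) and 9 of its best known target genes: Mdm2, Cdkn1a, Ccng1, Plk2, Bbc3, Bax, Sesn1, Phlda3 and Gdf15. They were chosen by name as genes of 1 pathway, with earlier results of these data known, and each was read from the probeset that the platform annotation pairs with that gene alone (the one with the higher mean where there are several). Of the 10 genes, 7 had such a probeset, 1 each, out of 22180 genes named in this way on the array. Trp53, Bax and Gdf15 have no probeset that the annotation table used here pairs with them, and their expression was not analysed here.

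Both arrays hold RNA of subepithelial myofibroblasts, the contractile matrix-producing cells under the gut epithelium, taken from the small bowel of BALB/c mice without a genetic change (wild type). One condition is cells cultured alone (non-stimulated), and the other is cells kept for 1 day with 5 mg/ml of homogenised eosinophils from the intestine (stimulated). Each condition is 1 array of RNA pooled from 3 cultures, so no difference has a replicate error, no test between conditions is possible, and every value describes these 2 pools. The labels do not give the purity of these primary cultures, and in bulk RNA fewer cells that express a gene and less RNA per cell cannot be told apart.

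p53 is a transcription factor that is held low in resting cells by Mdm2, the ubiquitin ligase that marks it for destruction and is itself a p53 target. DNA damage and other stresses stabilise the protein, mostly without a change in its mRNA, so the RNA of its targets is the usual readout of its activity. Targets halt the cell cycle (Cdkn1a, which encodes the kinase inhibitor p21), promote death through mitochondria (Bbc3, which encodes PUMA, and Bax), restrain growth signalling (Sesn1, Phlda3) or act on other cells after secretion (Gdf15). In cultured fibroblasts the pathway is known for its part in growth arrest and senescence.

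p53 binds DNA as a tetramer at a pair of decamers, called p53 half-sites, each of purines, a C, A or T bases, a G and pyrimidines, with a short gap between them. The RefSeq promoter windows of the 10 genes (15 windows of 300 bases on GRCm38.p6, from 250 bases before a transcript start to 50 after it) were read for exact matches to this half-site consensus. The consensus reads the same on both strands, and it overlaps no other motif searched, since none was. A match was present in at least 1 window of 6 of the 10 genes, and in 6 of the 15 windows (40.0%), beside 8.36% of all 32851 windows. A match describes letters and is no measured binding site. The genes were chosen as known p53 targets, so their higher share is no independent result. The stretches below are those of the 4 measured genes with a match, shown because they hold the consensus letters, with 30 bases on either side. They are written 5′ to 3′ in the direction of the gene, with each exact match in capitals. Whether p53 binds these letters was not tested.
Cdkn1a, chr17:29090876-29090967, plus strand: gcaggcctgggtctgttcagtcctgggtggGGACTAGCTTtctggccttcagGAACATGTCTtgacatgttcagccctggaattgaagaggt
Ccng1, chr11:40755432-40755501, minus strand: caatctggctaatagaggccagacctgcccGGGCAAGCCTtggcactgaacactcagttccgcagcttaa
Mdm2, chr10:117710905-117710974, minus strand: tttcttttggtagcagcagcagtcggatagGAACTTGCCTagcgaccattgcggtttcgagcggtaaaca
Sesn1, chr10:41887236-41887305, plus strand: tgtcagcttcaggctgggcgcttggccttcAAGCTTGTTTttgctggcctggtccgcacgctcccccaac

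Of the 2 Cdkn1a windows, only that of the upstream start holds matches. It holds 2 exact matches, whose first bases lie 73 and 51 bases before that start with a gap of 12 bases between them. The 10 bases directly after the second match differ from the consensus only in their first letter, so they were not counted. A pair of exact matches with a gap of at most 13 bases was present in 0.0731% of all windows. Which decamers p53 pairs in Cdkn1a was not tested. The single exact matches began 185 bases before the start in Ccng1, 186 in Mdm2 and 173 in Sesn1. That of Sesn1 lies in the window of the downstream of the 2 starts. The 10 bases directly before the Ccng1 match differ from the consensus in 1 letter, and such near matches were not counted. Trp53 and Bax also hold 1 match each, which begins 75 and 201 bases before the start. The windows of Plk2, Phlda3, Bbc3 and Gdf15 hold no exact match, which says only that these letters are not in the windows read. Among 68 other genes of the target lists described further on, 12 (17.6%) have a match in a window, beside 9.55% of all 27025 genes with a window. The members' windows had a median GC content of 64.7%, beside 52.7% for all windows.

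**Figure D1:**
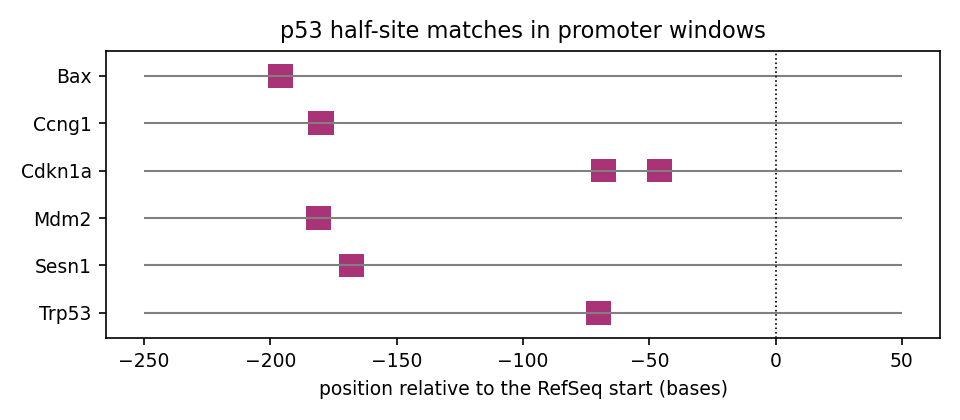
Position of exact p53 half-site matches (filled blocks) in the RefSeq promoter windows that hold one, in bases relative to the transcript start (dotted line), 1 row per gene. The 2 blocks of Cdkn1a lie 12 bases apart, and all 7 matches lie upstream of the start.

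The arrays carried the RNA of fibroblasts. All 10 fibroblast and myofibroblast markers were above the background level, which was 5.58 on the non-stimulated and 5.57 on the stimulated array (log2). It is the value that 95% of 1407 probesets for odorant and pheromone receptors, genes of sensory neurons, stayed under. Within that list the contractile markers Acta2, Tagln and Des differed by -0.28, -0.41 and -0.62 (stimulated minus non-stimulated) and the receptor gene Pdgfra by 0.56. The part of such a shift in the values of p53 targets was not tested. One label field names eosinophils as the source of both samples, but 2 of 8 measured eosinophil markers passed the background, and Epx and Prg2, which encode eosinophil granule proteins, did not pass it in either condition. Of leukocyte, macrophage, epithelial and endothelial markers, 3 of 6, 3 of 6, 3 of 6 and 3 of 5 passed it on at least 1 array. Of the leukocyte list, Cd53 read 9.73 and 9.56, well above background, while Ptprc was under it on both arrays. The 3 macrophage markers that passed it all read higher with homogenate: Lyz2 by 0.51 (under background without it, so at least 1.06-fold), Cx3cr1 by 0.23 and Cd68 by 0.21; their part in the values of p53 targets was not tested. The summed log2 values of the eosinophil, leukocyte and macrophage markers were 37.8, 36.0 and 33.2 on the non-stimulated array and 36.7, 35.4 and 34.4 on the stimulated array. These sums include the markers under background, cannot be compared between lists, and measure no amount of cells.

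The p53 target genes read nearly the same in both conditions. All 7 measured genes were above background on both arrays, 3 read higher and 4 lower with homogenate, and none differed by 2-fold, beside 0.192% of the 14068 genes above background that measured at least 2-fold higher and 0.0426% that measured at least 2-fold lower. The differences (stimulated minus non-stimulated, log2) ran from -0.29 to 0.27, with a median of -0.033, beside a median of 0.0016 for all genes above background. Past a smaller fold of 1.2, 1 gene (Plk2) was higher and 1 (Sesn1) lower, each 14.3% of the 7, where 6.11% of all genes above background were as much higher and 6.91% as much lower. With 7 genes, 1 gene more or less moves such a share by its whole size, so these shares single out nothing about the pathway. Dim probesets vary more, and the 14068 genes were therefore put into 4 equal sets by mean expression. Each of the 7 genes lay inside the central 95% of the differences in its own set.

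**Figure D2:**
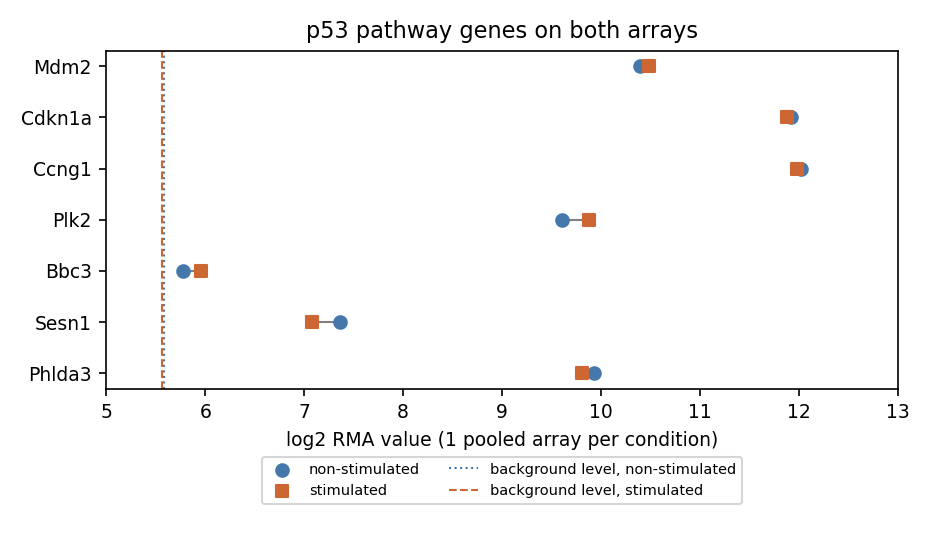
Log2 RMA values of the 7 measured p53 pathway genes on the non-stimulated (circles) and the stimulated array (squares), with the background level of each array as a vertical line. The symbols of each gene lie close together, those of Sesn1 furthest apart at 7.37 and 7.08, and Bbc3 lies near the background. Levels of different genes are not comparable, since probesets differ in brightness.

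Of the regulators of p53, Mdm2, its ubiquitin ligase and feedback target, read 10.39 on the non-stimulated and 10.49 on the stimulated array. That is a difference of 0.10, or 1.07-fold higher, with 78.4% of the genes in its expression set below it. Mdm4, the relative that blocks p53 without destroying it, read 9.04 and 9.15, a difference of 0.12. The values of both inhibitors were thus a little higher with homogenate, each well inside the spread of genes as bright.

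Of the cell cycle arrest genes, Cdkn1a and Ccng1 gave the smallest differences of the 7 genes and Plk2 the highest. Cdkn1a, which encodes p21, the inhibitor of cyclin-dependent kinases that carries out much of the p53 arrest, read 11.92 and 11.88, a difference of -0.033. Ccng1, cyclin G1, which recruits a phosphatase to Mdm2, read 12.02 and 11.98, a difference of -0.038. These 2 genes differed by 1.02-fold and 1.03-fold, and both had a difference nearer to 0 than the quartiles of all genes above background (-0.10 and 0.10). Plk2, a polo-like kinase that acts in centriole duplication and is induced by several stresses, read 9.61 and 9.88. It was 1.21-fold higher (0.27 on the log2 scale) with homogenate, with 97.2% of the genes in its set below it and the central 95% of that set between -0.25 and 0.29. Of that brightest set, 2.96% of the genes were at least 1.2-fold higher. After a lowess trend over expression was taken off, its difference was 0.25 and no pathway gene was past 1.2-fold on the higher side.

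Of the death genes, Bbc3, which encodes the BH3-only protein PUMA that frees BAX and BAK, read 5.77 and 5.95. The difference of 0.18 (1.13-fold higher) lay in the dimmest set, whose central 95% ran from -0.51 to 0.48, and 81.8% of that set lay below it. Both values lie near the background levels of 5.58 and 5.57, so that the probeset measured little more than background. Its partner Bax was not analysed here, and Bak1, which forms the same kind of pore in the outer mitochondrial membrane, read 8.97 and 8.90.

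Of the genes that restrain growth signalling, Sesn1, a sestrin that senses leucine and holds back the growth kinase complex mTORC1, read 7.37 and 7.08. It was 1.22-fold lower with homogenate (-0.29 on the log2 scale), the lowest of the 7 differences. In its set, 6.71% of the genes lay below it and the central 95% ran from -0.39 to 0.36, while 8.05% of the set was at least 1.2-fold lower. Phlda3, whose pleckstrin homology domain competes with the kinase AKT for membrane lipid, read 9.93 and 9.81. Its difference of -0.12 (1.08-fold lower) had 11.4% of its set below it. Both of these brakes read lower with homogenate, Sesn1 by more than Phlda3, and neither left the spread of genes of like expression.

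**Figure D3:**
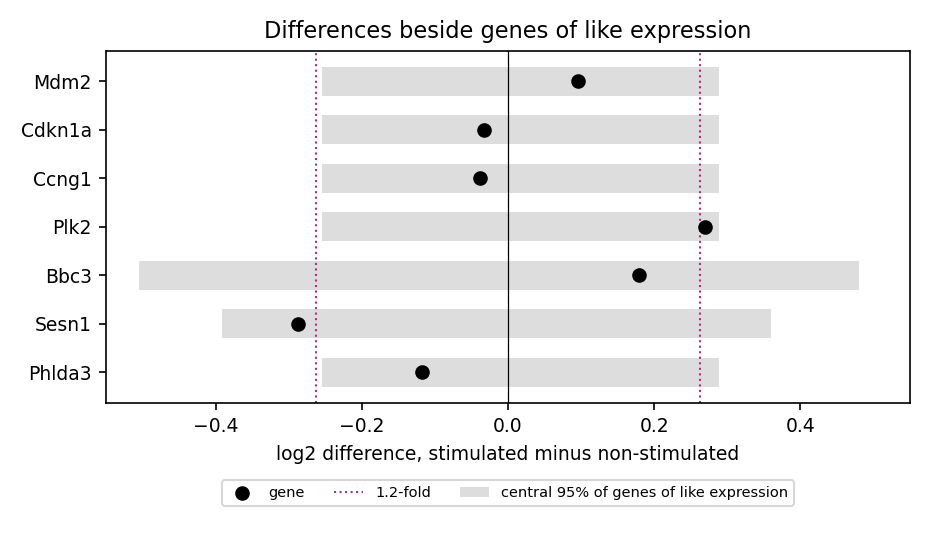
Log2 difference (stimulated minus non-stimulated) of the 7 measured genes (points) over the central 95% of the differences of genes in the same of 4 expression sets (grey bars), with 1.2-fold in either direction as dotted lines. Every point lies on its bar, Plk2 nearest to the upper end at 0.27 of 0.29; the bars show the spread between genes and are no replicate error.

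The near relatives of these proteins, which are not all p53 targets, spread further than the members did. The relatives are more numerous, and the furthest of them, Cdkn1c, Bok and Bcl2l2, lie in a dimmer expression set than most members. Dimmer probesets vary more, and more genes give a wider range. The wider spread therefore does not show that the members were steadier than genes of like expression. Of the Cip/Kip inhibitors, Cdkn1b (p27) read 8.03 and 8.15, while Cdkn1c (p57), an imprinted inhibitor of the cell cycle, read 7.23 and 6.78 and was 1.37-fold lower, with 1.31% of its set below it. Cdkn1a thus differed by less than either relative. Of the sestrins, Sesn2 differed by -0.062 and Sesn3 by 0.15, and neither was past 1.2-fold as Sesn1 was. Of the polo kinases, Plk1, Plk3, Plk4 and Plk5 differed by -0.071, -0.0056, 0.043 and 0.071, and only Plk2 of the 5 was past 1.2-fold. Ccng2 and Ccni, the cyclins nearest to Ccng1, differed by 0.099 and -0.024. Phlda1 read higher by 0.21 while Phlda2 was under background on both arrays. Of the p53 relatives, Trp63 was under background on both arrays and Trp73 read 5.73 and 5.82, near that level. Ret, the signalling partner of the Gdf15 receptor, read 7.60 and 7.59, and the receptor gene Gfral was under background.

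In the BCL-2 family, to which Bbc3 and Bax belong, 3 of 13 members above background were past 1.2-fold higher and 1 lower, beside the 6.11% and 6.91% of all genes. It is the largest of the families read, so its count cannot be ranked against theirs. The genes past the fold all lie in the same expression set, which is dimmer than that of most pathway genes. Dimmer probesets vary more, so these counts single out nothing about the family. Bcl2l2 (BCL-W, which protects cells from death) was 1.32-fold higher, from 6.81 to 7.20. The BH3-only genes Bid and Bcl2l11 (BIM), which promote death, were 1.25-fold and 1.21-fold higher. Bok, a pore-forming member, was 1.32-fold lower, from 7.58 to 7.18. Bok and Bcl2l2 lay outside the central 95% of their expression set. The genes past 1.2-fold thus include promoters of death on both sides (Bid and Bcl2l11 higher, Bok lower) and 1 protective gene, which was higher. The protective genes Bcl2, Bcl2l1 and Mcl1 differed by -0.12, 0.067 and -0.031. A second, dimmer probeset of Mcl1 read 6.69 and 6.32, a difference of -0.37.

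**Figure D4:**
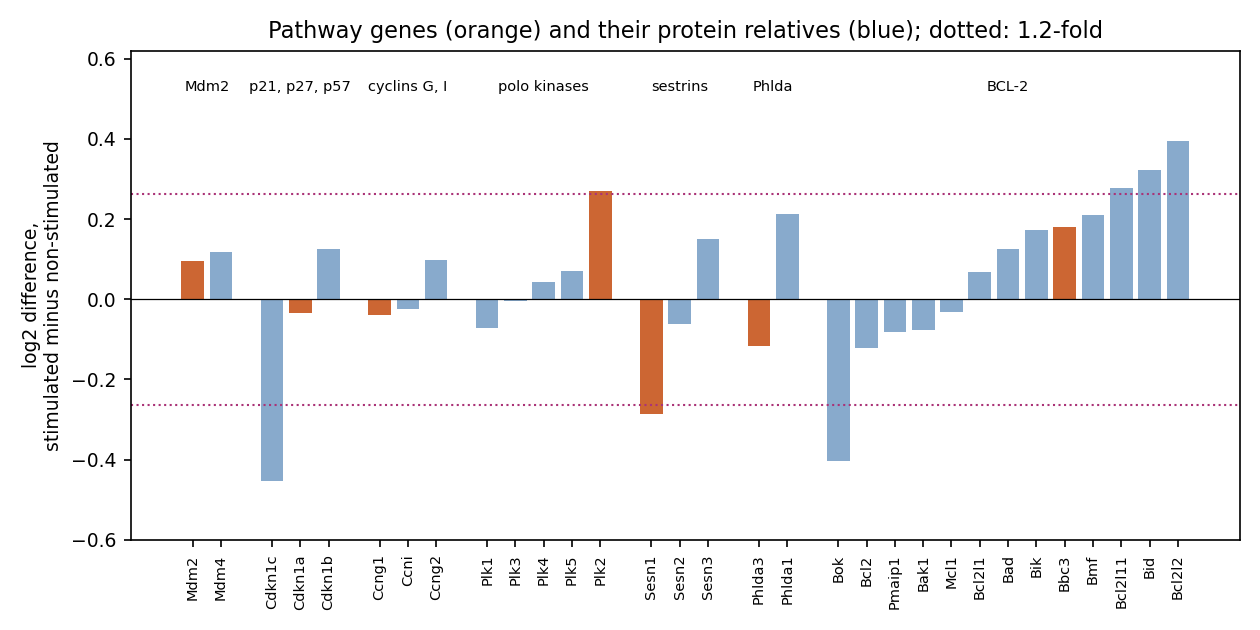
Log2 difference (stimulated minus non-stimulated) of the measured p53 pathway genes (orange) and their protein relatives (blue) above background, grouped by family, with 1.2-fold as dotted lines. Cdkn1c at -0.45 and Bok at -0.40 lie lowest and Bcl2l2 at 0.40 highest, all 3 further from 0 than any pathway gene. All 3 are dimmer than most of the pathway genes, and dimmer probesets vary more.

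The wider pathway was read from 6 lists of p53 targets, which hold 94 genes including 9 of the 10 above (all but Trp53). Of these, 85 had a probeset of their own, 84 were above background, and 9 were not analysed here. Of the 84, 44 read higher and 40 lower with homogenate, 7 by at least 1.2-fold higher and 5 by at least 1.2-fold lower, and none by 2-fold. These are 8.33% and 5.95%, beside 6.11% and 6.91% of all genes above background. The median difference was 0.011, beside 0.0016 for all. Both shares are near those of all genes, and 81 of the 84 targets lay inside the central 95% of their expression set. The 3 outside it were Dram1, Fas and Thbs1. With the background at the 99th percentile of the same receptor probesets, 4 in place of 7 targets were at least 1.2-fold higher. Those lost were Icam1, Cx3cl1 and Abcb1a. Among all genes above background, 50.2% read higher. The single lists below hold few genes each, so their counts single out nothing about a list.

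Of 16 cell cycle arrest targets, 5 read higher and 11 lower, with a median of -0.036. Besides Plk2, those past 1.2-fold were Fbxw7, a substrate receptor of a ubiquitin ligase that degrades cyclin E, which read 7.50 and 7.23, and Trp53cor1, the long non-coding RNA known as lincRNA-p21, transcribed next to Cdkn1a, which read 7.04 and 6.78. Each differed by -0.27, while Cdkn1a, the neighbour of Trp53cor1, differed by -0.033. Fbxw7 and Trp53cor1 lay inside the central 95% of their expression set, of which 8.05% was at least 1.2-fold lower. They are 12.5% of the 16, beside 6.91% of all genes above background. After a lowess trend was taken off, 1 gene of the list in place of 2 was past 1.2-fold on the lower side and 0 on the higher. Sfn (14-3-3 sigma) differed by -0.21, Btg2, an antiproliferative gene, by 0.045 and Ckap2 by 0.055.

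Of 18 cell death targets, 11 read higher and 7 lower, with a median of 0.035. Fas, the death receptor, was the furthest, at 8.16 and 8.62, which is 1.38-fold higher with 98.8% of its set below it. Bid followed at 6.95 and 7.27. Perp, a membrane protein of desmosomes, read 5.68 and 5.37, under background on the stimulated array, so that its value there is at least 1.08-fold lower. It is counted among the 5 targets past 1.2-fold on the lower side by its measured values, and the bound does not reach that fold. Apaf1, the core of the apoptosome, differed by 0.18, Eda2r, a receptor of the TNF receptor family, by 0.16, and Pmaip1 (NOXA) by -0.081. Fas is also a known target of NF-kB, as are the secreted and surface genes Icam1 and Cx3cl1. The part of NF-kB in their values was not tested.

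Of 16 feedback and signalling targets, 6 read higher and 10 lower, with a median of -0.013 and none past 1.2-fold. Trp53inp1 and Zmat3, a nuclear cofactor and an RNA-binding splicing regulator, led on the higher side at 0.11 and 0.10. Sertad1 and Epha2 led on the lower side at -0.23 and -0.21. Of 18 metabolic, oxidant and autophagy targets, 11 read higher and 7 lower, with a median of 0.047. Dram1, a lysosomal membrane protein that promotes autophagy, was 1.40-fold higher, from 7.73 to 8.22, the furthest of all targets, and Abcb1a, a drug efflux pump, was 1.24-fold higher. Sesn1 was the only one of the list past 1.2-fold on the lower side, and Pank1 followed it at -0.14.

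Of 7 DNA repair and nucleotide supply targets above background, 3 read higher and 4 lower, with a median of -0.016 and none past 1.2-fold. The translesion polymerase genes Rev3l and Polh differed by 0.14 and 0.10 and Polk by -0.18, and Mgmt, which repairs alkylated guanine, by -0.13. Of 10 secreted and surface targets, 8 read higher and 2 lower, with a median of 0.055. The adhesion molecule Icam1 was 1.28-fold higher, from 6.27 to 6.62, and the chemokine Cx3cl1 1.25-fold higher, from 6.02 to 6.34. Thbs1, the matrix protein thrombospondin 1, was 1.22-fold lower, from 12.15 to 11.87, with 2.08% of its set below it, and Cd80 followed at -0.16.

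**Figure D5:**
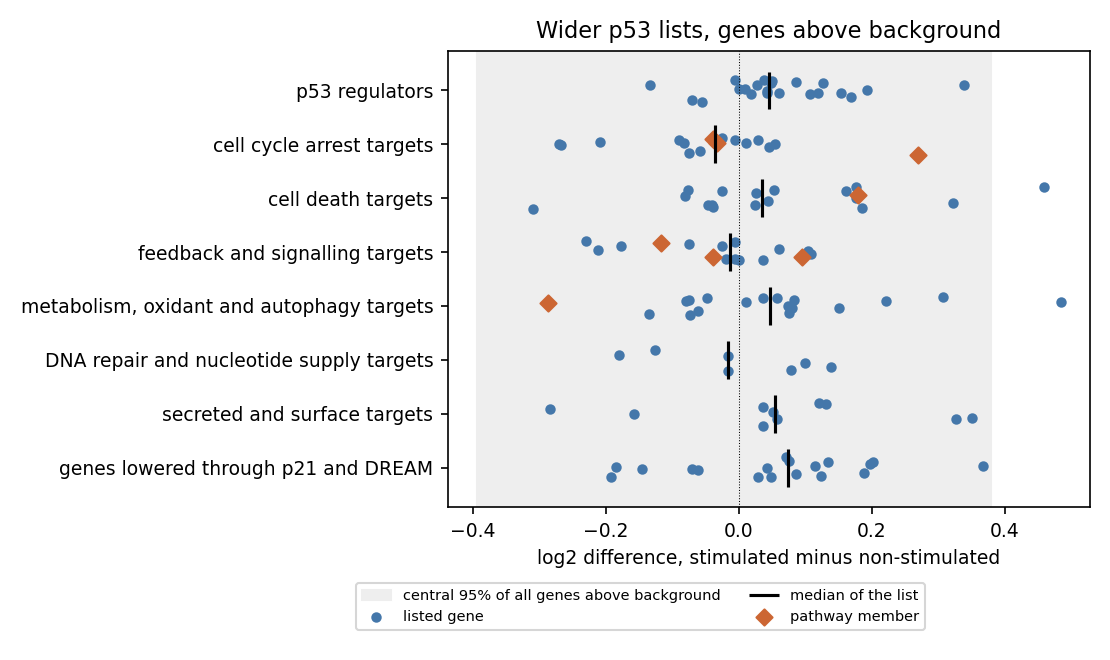
Log2 difference (stimulated minus non-stimulated) of the genes above background in 8 lists of the p53 pathway (points; orange diamonds are the pathway genes described first), with the median of each list as a black line and the central 95% of all genes above background as the grey band. All list medians lie between -0.036 and 0.074, and Fas and Dram1 lie beyond the upper edge of the band.

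Of the genes that act on p53, more read slightly higher than lower, but none left the spread of genes of like expression. Of 22 regulators, all above background, 18 read higher and 4 lower, with a median of 0.046, where 50.2% of all genes above background read higher. The checkpoint kinase gene Chek1 was 1.26-fold higher, from 6.09 to 6.43, and was the only one past 1.2-fold. That is 4.55% of the 22, beside 6.11% of all genes above background. All 22 lay inside the central 95% of their expression set, so these counts single out nothing about the regulators. With the background at the 99th percentile, 0 regulators were past 1.2-fold on the higher side. The kinases that sense DNA damage, Atm, Atr and Prkdc, differed by 0.19, 0.17 and 0.15; a second probeset of Atr, under background, differed by -0.29. Cdkn2a, the locus of p16 and of ARF, which releases p53 from Mdm2, read 9.93 and 9.94, a difference of 0.0094. Daxx and Crebbp led on the lower side at -0.13 and -0.071.

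Genes that active p53 lowers through p21 and the repressor complex DREAM are those of cell division. Of 18 above background, 13 read higher and 5 lower with homogenate, with a median of 0.074. Among all genes above background, 50.2% read higher and the median was 0.0016. Past 1.2-fold, 1 of the 18 (5.56%) was higher and 0 were lower, beside 6.11% and 6.91% of all genes. Of the 18, 17 lay inside the central 95% of their expression set. The part of p53 in these values was not tested. Cdc25a, the phosphatase that starts S phase, was 1.29-fold higher, from 6.84 to 7.21, and lay outside the central 95% of its set. Top2a and Ube2c followed at 0.20 and 0.20. Cdc20 and E2f1 led on the lower side at -0.19 and -0.19, and the proliferation marker Mki67 differed by 0.071. Bub1 and Cdc25c were under background on both arrays.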

How the data were processed

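RNA of 3 pooled cultures per condition was measured on 1 whole-transcript array each. The values are the authors' deposited log2 values, with medians of 5.76 and 5.77; per the submitters' processing notes they come from Affymetrix Expression Console and RMA, with no version stated there. When each array's values were put in order, no pair differed by more than 0.0757, so an overall shift between the arrays cannot be seen. The array annotation paired 23521 of 41345 probesets with 1 gene, and 23328 of these were given current symbols by gene identifier from the RefSeq table of GRCm38.p6. With several probesets, the one with the highest mean stood for the gene.

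A gene was above background when it passed the level given on at least 1 array, and where 1 array was under it a fold is a bound against that level. No test was run, since each condition has 1 array. Members, lists, folds and alternatives were chosen with earlier results of these data known. All members were described; of each list, genes past 1.2-fold and otherwise those furthest in either direction were named. Alternatives were the mean of probesets, centring on the median or a lowess trend, a background at the 99th percentile or none, and folds of 1.1, 1.5 and 2. The calculations ran in Python 3.11.15 with pandas 2.3.3 and statsmodels 0.14.6. Only the differences and the 1.2-fold calls were checked on simulated data, with known folds added to shuffled differences of these arrays.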

Additional observations from a re-analysis of the deposited data

How the results depend on the processing

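The differences of the 7 p53 pathway genes moved by less than 0.1 on the log2 scale in every alternative tried, and none changed direction. Bbc3 gave no value with the background at the 99th percentile, which it did not pass. Little else was possible, since each gene has 1 probeset and was above background on both arrays. Only the centrings could change a difference, by 0.0016 for the median and at most 0.0258 for the lowess trend. Plk2 stayed between 0.25 and 0.27 and Sesn1 at -0.29. The count of members past the fold on the higher side, 1 at 1.2-fold, was 0 after centring on a lowess trend and 2 at 1.1-fold. At 1.5-fold and at 2-fold, 0 members were past the fold in either direction. Of all target lists together, 7 genes were higher and 5 lower at 1.2-fold; 15 and 11 were at 1.1-fold, and 0 and 0 at both 1.5-fold and 2-fold. With the background at the 99th percentile 4 were higher, since fewer genes passed it. The shares of all genes at 1.1-fold, at 1.5-fold and with that background were not taken. The counts of members and targets there show only how they depend on the setting. The alternative of raising values under background to that level was chosen after the data were seen. Of 192 further comparisons over the single lists, 156 stayed within the tolerance of 0.1 for a median or 1.5 times for a count, 36 moved, and 0 reversed. The median of all genes shifted by 0.0016 in the centring. One array per condition limits the precision of every value.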

Other observations

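Other genes named after p53 that belong to no list above, chosen by symbol after their values were seen, were Trp53bp2, Trp53inp2, Trp53rka and Trp53rkb. Trp53rka, a kinase gene of the complex that modifies transfer RNA, read 5.65 on the non-stimulated and 6.27 on the stimulated array, which is 1.54-fold higher and outside the central 95% of the dimmest expression set. Its relative Trp53rkb read 6.03 and 6.11, and Trp53bp2 and Trp53inp2 differed by 0.065 and 0.11.

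Of 41345 probesets, 1224 (2.96%) had exactly the same deposited value on both arrays, as did 227 (1.61%) of the genes above background and none of the p53 targets in the lists.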
